A study of Caenorhabditis elegans with 4 samples.

Results

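The 200 transcripts described here gave less signal on replicate 1 than on any of replicates 2, 3 and 4. They were chosen from 10212 transcripts with a mean log2 signal of 10 or more, out of 23181 measured, as the 200 with the widest gap, which is the lowest log2 signal of replicates 2 to 4 minus that of replicate 1. They belong to 176 named genes, and 12 of the transcripts have no match in the gene table. Total RNA from early embryos of Caenorhabditis elegans, a nematode, was hybridised to 1-colour NimbleGen arrays, with 4 replicates in 1 group. The group is labelled strain PFR40, the hpl-2(tm1489) mutant, hermaphrodites with a few males. The embryos came from bleached gravid adults of liquid culture, for which the growth protocol names N2, the wild-type strain. HPL-2 is a worm relative of the heterochromatin protein HP1. Arrays of wild-type embryos, which the study design mentions, are not analysed here, and nothing below compares genotypes. The labels give neither separate cultures nor a batch for the replicates, and the differences described may be technical. Because the signals of all 4 arrays chose the members, their low replicate 1 is a description, and no test was made.

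The early embryo of C. elegans runs largely on RNA made by the mother. The oocyte is loaded with transcripts for its eggshell, for meiosis, for germ granules and for RNA-binding proteins that set cell fates, and many of these RNAs are destroyed as zygotic transcription begins. Sperm genes are transcribed during spermatogenesis, in hermaphrodite larvae and in males. Small heat shock proteins are chaperones whose genes are switched on by heat and other stress. An egg preparation from bleached adults holds embryos of a spread of ages, and the labels give no stage beyond early embryo.

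Signals below are the authors' linear normalized values, in arbitrary units and in the order replicate 1, 2, 3, 4, unless log2 is named. Brightness differs between probes, so levels of different genes are not compared. The gaps of the members ran from 0.59 to 1.71 log2, a 1.5-fold to 3.28-fold difference, with a median of 0.70. Of the 10212 transcripts, 50.6% had their lowest signal on replicate 1, and 0.225% lay there by 1 log2 or more, 23 transcripts that are all members. A gap as wide as that of the last member was found below replicate 2 for 0.47% of the 10212, below replicate 4 for 0.0294% and below replicate 3 for 0.00979%. Just inside the limit lay hsp-16.48 (gap 0.587 log2), F39F10.3 (0.587) and F22E5.17 (0.587), and just outside it Y66D12A.18 (0.585), bath-15 (0.584) and bath-4 (0.584). Members were dimmer than the other transcripts of the 10212, with a median mean log2 signal of 11.08 against 12.77. In 76 of the 200 (38%) the signal on replicate 1 itself was under 10 on the log2 scale, a share not counted over the 10212. These 76 reached the signal minimum only through replicates 2 to 4, which favours the counts of members in the lists below.

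**Figure D1:**
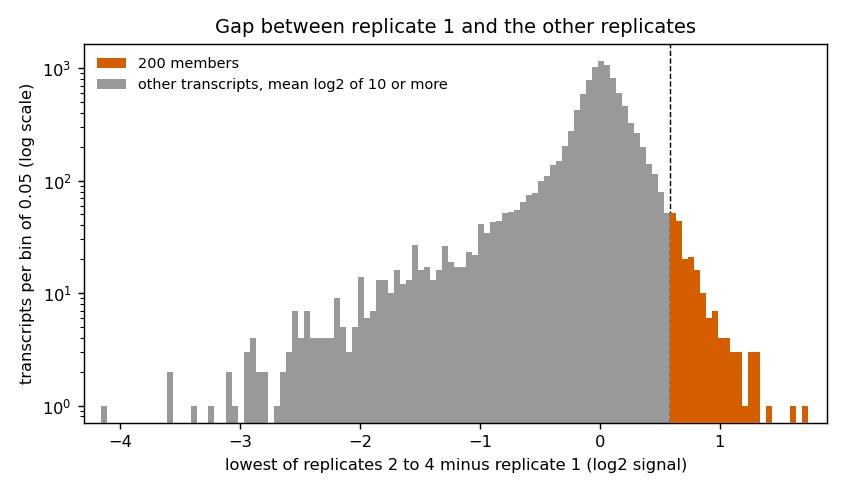
Number of transcripts (log scale) by gap, the lowest log2 signal of replicates 2 to 4 minus that of replicate 1, for the 200 members and the other transcripts with a mean log2 signal of 10 or more. The dashed line marks the gap of the last member, 0.59. The members form the end of a continuous tail, with no break at the line.

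Heat-inducible chaperone genes had the widest gaps of any group, with a median of 1.14 log2. The member with the widest gap was hsp-70, an inducible chaperone of the HSP70 family, with signals of 404, 1324, 1751 and 2738. It was lowest on replicate 1 and highest on replicate 4, and its gap of 1.71 log2 was 3.28-fold. The small heat shock genes hsp-16.2 and hsp-16.41, which lie next to each other on chromosome V, showed the same order. Signals were 2218, 5068, 6100 and 7802 for hsp-16.2. For hsp-16.41 they were 1134, 2680, 3218 and 3860. A second chromosome V cluster holds hsp-16.1, hsp-16.11 and hsp-16.48. Of these hsp-16.1 had signals of 5584, 11827, 15101 and 19737, and those of hsp-16.11 were within 0.032 log2 of it on every replicate, so the 2 genes cannot be told apart here. The gap of hsp-16.48 was 0.59 log2 and that of its relative hsp-16.49, no member, 0.53. In all 6 member genes replicate 4 was the highest, above replicate 2 by 0.53 to 1.05 log2.

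Other heat shock protein genes ranged widely. Of 16 heat shock protein genes with a mean log2 signal of 10 or more, 6 were members (37.5%), against 2.21% of all 7958 named genes that could be chosen. All of these members but hsp-70 are hsp-16 genes on chromosome V. The count takes hsp-16.1 and hsp-16.11, which cannot be told apart, as separate genes. The gaps of hsp-4, hsp-6 and hsp-1, chaperones of the endoplasmic reticulum, the mitochondrion and the cytosol, were 0.13, 0.07 and 0.04 log2. The small heat shock gene hsp-25 went the other way, with gaps of -1.52 to -1.49 log2 in its 3 transcripts. Over the wider list of heat shock and chaperone genes the median gap of 37 transcripts was -0.04.

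A group of 4 unnamed members on chromosome II shared the heat shock order. F35C11.2 had signals of 1151, 2311, 2921 and 4542, and M05D6.3 had 1231, 2356, 2936 and 4539. These 2 genes were within 0.097 log2 of each other on every replicate. Likewise F35C11.3, with 636, 962, 1686 and 2718, was within 0.083 log2 of M05D6.1, with 600, 939, 1705 and 2653. The last pair had the largest differences between replicates 4 and 2 among the members, 1.5 log2 in both. No sequence was at hand to tell whether the arrays can separate them.

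**Figure D2:**
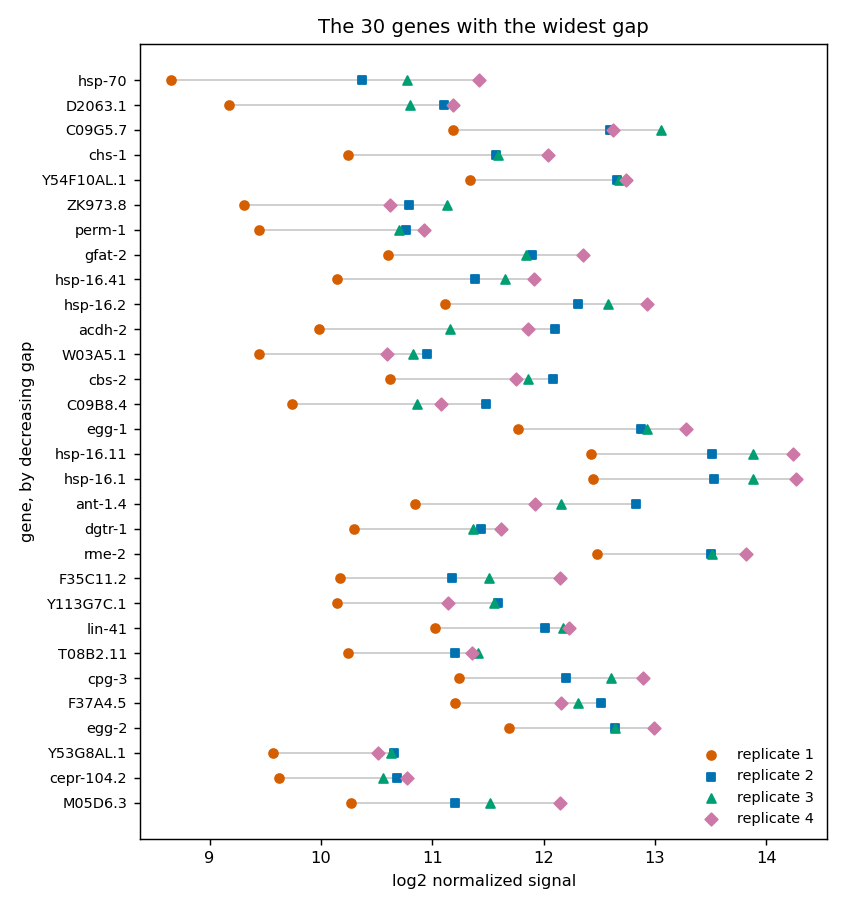
Log2 normalized signal of the 30 genes with the widest gap, 1 point for each of the 4 replicates, ordered from the widest gap at the top. Replicate 1 is the lowest point in each row, and the heat shock genes have replicate 4 as the highest.

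Eggshell and oocyte genes were the next group, with a median gap of 0.93 log2. The eggshell forms around the egg at fertilization, from a chitin layer, a proteoglycan layer and an inner lipid-rich permeability barrier. The chitin synthase gene chs-1 had signals of 1213, 3052, 3078 and 4221, and its gap was 1.33 log2. For gfat-2, whose product starts the synthesis of the sugar precursor of chitin, they were 1553, 3821, 3675 and 5238. Both genes were lowest on replicate 1 and highest on replicate 4, with replicates 2 and 3 close together. The proteoglycan genes cpg-2 and cpg-3 had signals of 11692, 17883, 19433 and 21334 and of 2424, 4717, 6244 and 7610.5. Their relatives cpg-1 and cpg-4 had smaller gaps of 0.32 and 0.48 log2 and were no members. Of the other genes named cpg, cpg-8 was at -0.02, and cpg-24 and cpg-20 at -0.55 and -0.70. Genes of the permeability barrier were members too: perm-1, with 697, 1738, 1668 and 1951, the acyltransferase gene dgtr-1 (gap 1.07 log2), and the cytochrome P450 genes cyp-31A2 and cyp-31A3 (0.87 and 0.91). The last 2 are close relatives at different places on chromosome IV, and each lies within a few genes of another member, cyp-31A3 beside memi-1 and cyp-31A2 near memi-3 and gfat-2.

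Of the 19 eggshell and egg activation genes that could be chosen, 6 were members (31.6%), against 2.21% of all named genes that could be chosen, and the gaps of the rest ran from -0.31 to 0.43 log2. The membrane proteins EGG-1 and EGG-2 sit on the oocyte surface and are needed for sperm entry. Their genes had signals of 3502, 7527, 7806 and 9931 for egg-1 and 3304, 6371, 6390 and 8155 for egg-2. The genes egg-3, egg-4, egg-5 and egg-6 had gaps of 0.41 to 0.43 log2, and cbd-1, the gene of a chitin-binding protein, 0.40. The median gap of the 26 eggshell transcripts was 0.30 log2, and 17 of the 26 were lowest on replicate 1, against 50.6% of the 10212 transcripts.

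Other members act in the growing oocyte. The yolk receptor gene rme-2 had signals of 5724, 11639, 11702 and 14433, a gap of 1.02 log2. The gene lin-41, a regulator of oocyte growth, had 2 transcripts among the members, and C12C8.3a gave 2084, 4122, 4629 and 4785. It is a near neighbour of hsp-70 on chromosome I, but its replicate 4 exceeded replicate 2 by only 0.22 log2, against 1.05 for hsp-70. The Pumilio gene puf-3 had a gap of 0.87 log2, while the related puf-11 and puf-5 had 0.33 and 0.28. The oocyte chloride channel gene clh-3 (0.82), and memi-1 and memi-3 (0.62 and 0.74), whose maternal products act at the end of female meiosis, complete this set. In the 18 eggshell and oocyte transcripts, grouped after their values were seen, replicate 4 was the highest in 16 and replicate 3 in the 2 transcripts of clh-3. Of the 27 oocyte genes that could be chosen, 3 were members, all named above, and the median gap of their 33 transcripts was 0.17 log2. A count of 3 says little about this list, beside the share of 2.21% over all named genes that could be chosen.

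Meiotic chromosome genes made up a flatter group. Of 66 genes on the list that could be chosen, 10 were members (15.2%), against 2.21% of all named genes that could be chosen. Of their 75 transcripts 63 were lowest on replicate 1, against 50.6% of the 10212, with a median gap of 0.23 log2. The crossover gene cosa-1 had signals of 1142, 1955, 2042 and 2038. The genes zim-3 and him-8 encode zinc finger proteins of the chromosome pairing centres and are neighbours on chromosome IV. They had 2319, 3883, 3955 and 4102 for zim-3, and 2088, 3342, 3499 and 3263 for him-8. The gene spo-11, which makes the breaks that start recombination, had 3058, 4840.03, 5027 and 5045. Replicates 2 to 4 lay close together in each of these genes, with replicate 1 alone below. The break-promoting genes him-5 and dsb-3 had gaps of 0.67 and 0.59 log2, the axis gene him-3 0.61, rmh-1, a partner of a recombination helicase, 0.65, and him-14, a MutS homolog of crossing over, 0.68. The annotation msh-4, here a pseudogene, had a gap of 0.63. Those just short of membership included him-19 (0.577), msh-5 (0.573), syp-2 (0.54) and zim-1 (0.53). The median range over replicates 2 to 4 was 0.08 log2 in the 10 members.

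Members with roles in germ granules and germline RNA control were few. The median range over replicates 2 to 4 of this group was 0.14 log2, and the widest was 0.44, in fog-1. The median range was 0.21 for all members and 0.10 for the other transcripts that could be chosen. P granules are RNA and protein bodies of the germline. The P granule gene pgl-3 gave 4419, 7831, 8612 and 8870.1 for C18G1.4b, and pgl-2 gave 987, 1619, 1623 and 1621, with a spread of 0.004 log2 over replicates 2 to 4, the narrowest of all members. The helicase genes glh-2, glh-3 and glh-4 had gaps of 0.42 to 0.44 log2 and were no members. The Pumilio gene fbf-2, which keeps germline stem cells, had a gap of 0.64, and its close copy fbf-1 0.47. The genes fog-1 and cpb-1, which encode CPEB-type RNA-binding proteins of sperm development, had gaps of 0.78 (transcript Y54E10A.4b) and 0.59. Both were highest on replicate 3. The other fog-1 transcript, Y54E10A.4a, had a gap of 0.51 and was no member. The gene fog-1 was also the 1 member among 35 dosage compensation and sex determination genes that could be chosen (2.86%). On that list fog-2 and fog-3 had gaps of 0.46 and 0.31. Of 26 P granule genes 2 were members (7.69%), of 35 maternal cell fate genes 2 (5.71%), and of 51 small RNA pathway genes none. With 2.21% of all named genes being members, counts this small are near that share and say little about these lists. The widest gap among the last was 0.51, for the RNA-dependent RNA polymerase gene ego-1. The gene elli-1 (0.73) and both transcripts of snpc-1.3 (0.76), which promotes piRNA transcription in the male germline, were members that no list held.

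**Figure D3:**
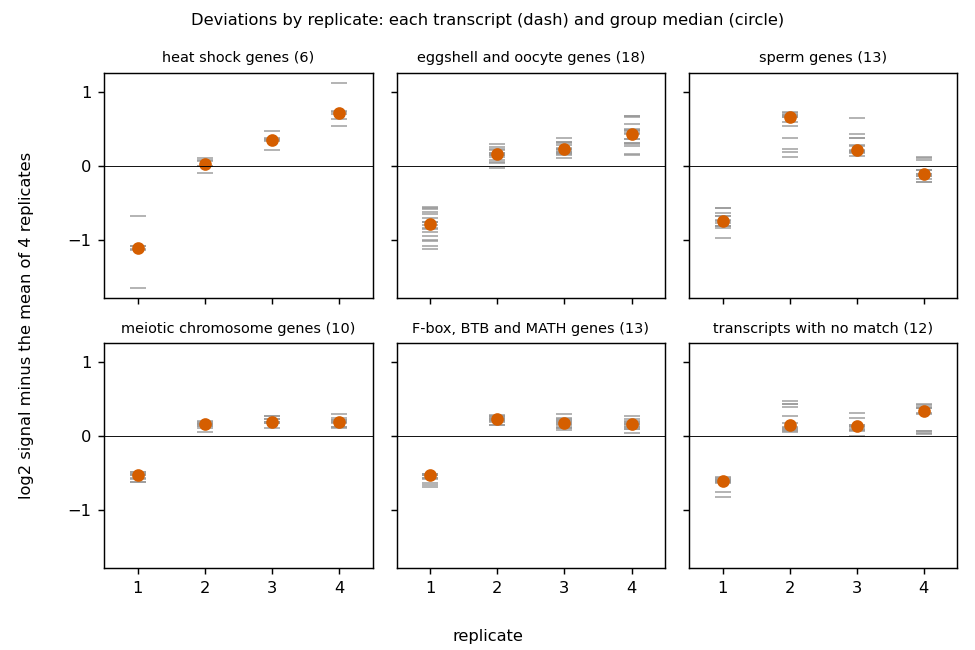
Log2 signal minus the mean of the 4 replicates, by replicate, for 6 groups of members, with the number of transcripts in brackets. Dashes are single transcripts and circles group medians. Replicate 1 is lowest throughout by construction. Replicate 4 is highest in the heat shock and most eggshell and oocyte genes, replicate 2 in most sperm genes, and replicates 2 to 4 are close in the meiotic and F-box groups.

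Sperm genes had a different order of the remaining replicates. Major sperm proteins (MSP) are the small cytoskeletal proteins of the crawling nematode sperm, and 7 of their genes were members, all on chromosome IV. The gene msp-53 had signals of 1096, 3045, 2194 and 1848, and msp-19 had 864, 2501, 1762 and 1383. They were lowest on replicate 1 and highest on replicate 2, with replicate 4 nearest to replicate 1. The other 5, msp-51, msp-57, msp-59, msp-65 and msp-113, had gaps of 0.61 to 0.66 log2 and the same order. All 30 measured MSP genes were lowest on replicate 1, against 45.3% of all named genes, but only 20 had a mean log2 signal of 10 or more, 13 of which had narrower gaps, down from 0.566 for msp-55. Since MSP genes are near-identical, probes may read several of them, and which gene of the family gave a signal is uncertain. The summed signal of the 30 genes was 26067 on replicate 1 and 54377, 41675 and 36066 on replicates 2 to 4.

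Other sperm genes among the members were gsp-3 and gsp-4, which encode sperm protein phosphatases. They had 1151, 3717, 3056 and 1998 for gsp-3, and 1249.7, 3575, 2925 and 1931 for gsp-4. Their values were near each other on all replicates, with replicate 2 the highest in both. The transcription factor gene spe-44, which switches on sperm genes, had 1784, 3259, 3373 and 3015. It and spe-41, a calcium channel gene of sperm, and spe-5, a proton pump subunit gene, were highest on replicate 3, as was ssq-3, while the 9 MSP and gsp genes were highest on replicate 2. Of 30 genes on the sperm list that could be chosen, 12 were members (40%), against 2.21% of all named genes that could be chosen. Of their 31 transcripts 29 were lowest on replicate 1, against 50.6% of the 10212. Some, such as msp-19 at 9.76 log2 on replicate 1, reached the signal minimum only through replicates 2 to 4, which favours both counts. Over all 98 measured genes of the list, 77 were lowest on replicate 1, against 45.3% of all named genes. Labels give a small share of males in the cultures, and no value tells sperm RNA of males from that of hermaphrodites.

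**Figure D4:**
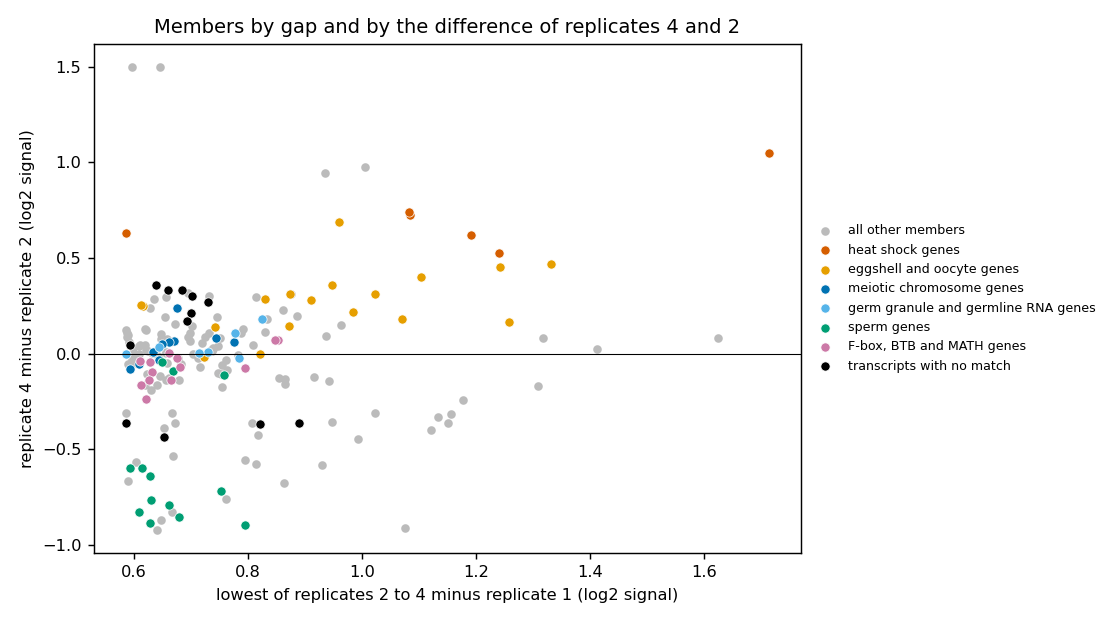
Each member by its gap (x axis, log2) and by replicate 4 minus replicate 2 (y axis, log2), coloured by group. Heat shock and most eggshell and oocyte genes lie above 0 and all 13 sperm genes below it, while meiotic, germ granule and F-box genes lie near 0.

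The groups also differed in replicate 4 against replicate 2. This is a description, since the rule used both replicates and the groups were formed after the values were seen. Replicate 4 exceeded replicate 2 by 0.5 log2 or more in 11 members (5.5%), against 1.06% of the 10212 transcripts. These were the 6 heat shock genes, the 4 members like them on chromosome II, and cpg-3. Replicate 2 exceeded replicate 4 by as much in 22 members (11%), against 0.548% of the 10212. Of these, 10 were sperm genes: the 7 MSP genes, gsp-3, gsp-4 and ssq-3. Also in this set were the ADP/ATP carrier gene ant-1.4, with 1839, 7292, 4570.5 and 3877, and the lectin gene clec-73, with 718, 2119, 1945 and 1119. The other 10 have no gene name. Of these, Y59E9AR.1 was within 0.067 log2 of msp-57 and Y59E9AR.7 within 0.067 log2 of msp-59 on every replicate. ZK354.2 lies between msp-59 and msp-65. The other 7 were T10E9.4, Y57G11A.2, W03D8.10, which is annotated as a pseudogene, ZK849.1, F49C12.15, T08B6.4 and Y59H11AM.1. Members also varied more over replicates 2 to 4 than the other transcripts of the 10212, with a median range of 0.21 against 0.10 log2. They were dimmer too, with a median mean log2 signal of 11.08 against 12.77, and the part of brightness in this spread was not tested. Replicate 4 was the highest of replicates 2 to 4 in 82 members (41%), replicate 2 in 72 (36%) and replicate 3 in 46 (23%). In the 10212 these shares were 30.3%, 36% and 33.7%.

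F-box, BTB and MATH genes formed a large family group. Many of these proteins are adaptors that bring substrates to ubiquitin ligases, and the families have expanded greatly in nematodes. Of 132 F-box genes that could be chosen, 10 were members (7.58%), against 2.21% of all named genes that could be chosen. Of their 134 transcripts 121 were lowest on replicate 1, against 50.6% of the 10212, with a median gap of 0.33 log2. Some, such as fbxb-5 at 9.50 log2 on replicate 1, reached the signal minimum only through replicates 2 to 4, which favours both counts. Over all 364 measured F-box genes, 251 were lowest on replicate 1, against 45.3% of all named genes. The widest gap was that of fbxb-117, with signals of 914, 1671, 1685 and 1586. The others were fbxb-1, fbxb-5, fbxb-21, fbxb-34, fbxb-85, fbxb-86 (annotated as a pseudogene), fbxb-111, fbxc-47 and fbxc-50, with gaps of 0.61 to 0.68 log2. Of 33 BTB and MATH genes 3 were members (9.09%), btb-19 (gap 0.85), bath-1 (0.85) and btb-7 (0.61), the last a near neighbour of fbxb-5 on chromosome II. Beside the share of 2.21% over all named genes, a count of 3 says little. Replicates 2 to 4 were close in all 13 genes, with ranges of 0.05 to 0.24 log2. The list of conserved ubiquitin ligase adaptors, which holds cullin and Skp1-related genes, had a median gap of 0.04. It had no member among 35 genes, where the share of 2.21% over all named genes would also give few or none.

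Metabolic enzymes and transporters, grouped after their values were seen, held 15 member genes. The 3 transcripts of acdh-2, an acyl-CoA dehydrogenase, had gaps of 1.02 to 1.18 log2. C17C3.12b gave 1012, 4392, 2288 and 3712, highest on replicate 2 with replicate 3 well below replicates 2 and 4. A similar dip on replicate 3 was seen in the cytochrome P450 gene cyp-13B1, with 1393, 3435, 2314 and 4237 for F02C12.5c. The gene cbs-2, of the cystathionine beta-synthase family, had 1576, 4347, 3720 and 3457. Gaps were 0.87 log2 for bcmo-1, of the carotene oxygenase family, 0.89 for the ABC transporter gene mrp-3, 0.76 for the dehydrogenase gene dhs-8 and 0.74 for the nucleoside transporter gene ent-5. The rest were ech-1.1, pde-1, gst-16, ipgm-1, pgm-1, tdc-1 and lbp-9, with gaps of 0.59 to 0.68. The gene acdh-2 is the 1 member among 8 yolk and adult intestine genes that could be chosen, and ipgm-1 the 1 among 9 of the somatic gonad. Beside the share of 2.21% over all named genes, 1 member of so short a list says little.

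Several of the remaining named members regulate RNA or signalling. The 4 transcripts of rskn-1, a ribosomal S6 kinase gene, had gaps of 0.81 to 0.88 log2, and T01H8.1b gave 3558, 6533, 7053 and 8121. The Krüppel-like factor gene klf-1 had a gap of 0.85, the mRNA export gene nxf-1 0.70 and the T-box gene tbx-36 0.74. The genes sdz-7, sdz-8 and sdz-15, named as zygotic targets of SKN-1, had gaps of 0.60, 0.67 and 0.60. The early zygotic list does not hold these sdz genes, and its widest gap was 0.48, for sdz-10. It had no member among 25 genes, where the share of 2.21% over all named genes would also give few or none.

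Of the 176 named genes, 69 (39.2%) carry only a sequence name, against 31.5% of the other genes that could be chosen. D2063.1 had signals of 578, 2198, 1783 and 2326, and C09G5.7 had 2331, 6203, 8492 and 6297. ZK973.8 had 635, 1772, 2250 and 1574. The gap was 3.08-fold in D2063.1, where replicates 2 and 4 were alike, and 2.66-fold in C09G5.7, which was highest on replicate 3. W03A5.1 (gap 1.15 log2) and its neighbour W03A5.2 (0.62) on chromosome III were both members. The gaps of C09B8.4, Y113G7C.1, T08B2.11, F37A4.5 and Y53G8AL.1 were 0.94 to 1.12.

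The 12 members with no match in the gene table fell into 2 kinds. K02E7.2, C17B7.13, W03G1.3, K02B7.2, R09E12.5 and Y55F3C.11 had alike signals, ranging over the 6 from 10.83 to 11.02 log2 on replicate 1 and from 11.77 to 12.06 on replicate 4. The closest pair lay within 0.042 log2 on every replicate, with 10.83, 11.53, 11.60 and 11.83 log2 for K02E7.2 and 10.87, 11.53, 11.61 and 11.86 for R09E12.5. All 6 were highest on replicate 4, as were K07E8.10 and R52.2. The other 4, ZK616.7, ZK783.5, T08A9.4 and T08A9.5, were highest on replicate 2. Unmatched transcripts made up 6.0% of the members and 2.12% of the other transcripts of the 10212.

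Transcripts of 1 gene did not always share the low replicate 1. Of the member genes, 18 had several transcripts on the arrays, and in 9 every transcript was a member. Of the 11 transcripts of these genes that were no members, 7 had a mean log2 signal of 10 or more and 7 were lowest on replicate 1. In Y54F10AL.1 transcript b gave 2596, 6475, 6549 and 6848, a gap of 1.32 log2, while transcript a had a gap of -0.06 and a mean of 14.14 log2. In klc-2, a kinesin light chain gene, transcript d had a gap of 0.61 and transcripts a, b and c -0.32 to -0.18. No source used here gives the probes behind a transcript.

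Chromosome IV held 43 of the 176 genes (24.4%), against 1253 of the other 7782 genes that could be chosen, and the X chromosome held 11 (6.25%), against 983 of the 7782. The shares were 22.7% against 18.3% on chromosome II, 14.2% against 18.7% on III, 17% against 19.5% on I and 15.3% against 14.8% on V. Neighbouring copies such as the MSP genes count separately here. Besides those already named, members at most 3 genes apart included Y43D4A.3 and Y43D4A.4, and R08F11.1 and rips-1.

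**Figure D5:**
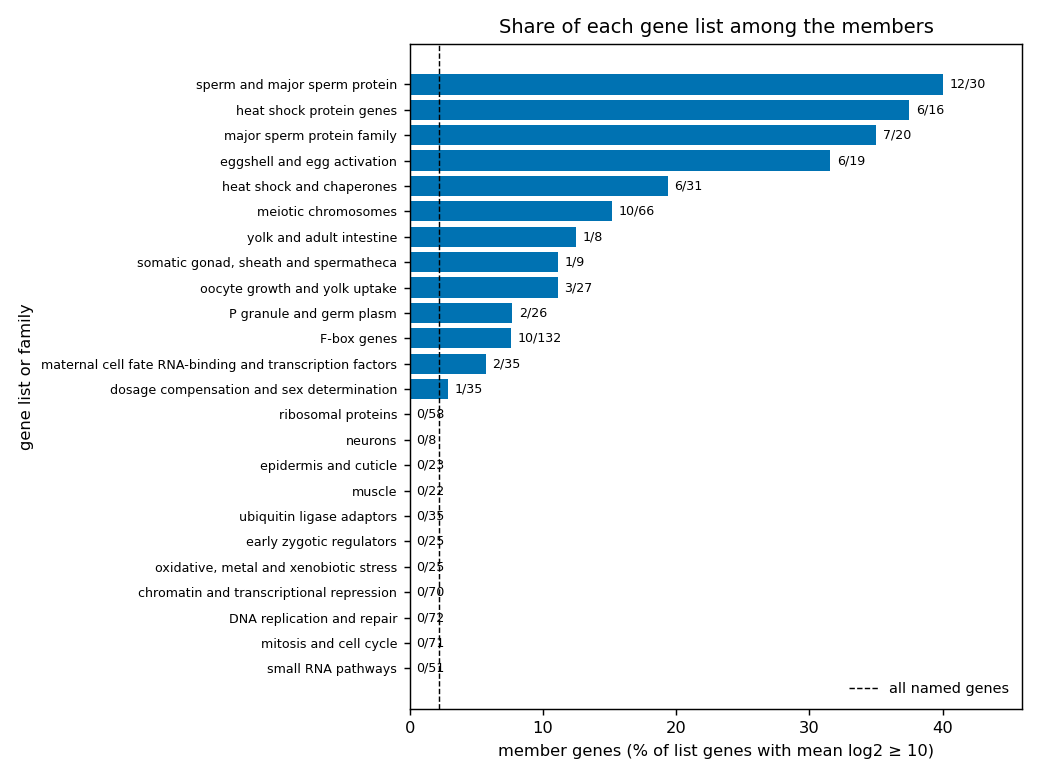
Share of the genes of each list or family with a mean log2 signal of 10 or more that are members, with the counts beside each bar. The dashed line is the share of all named genes, 2.21%. Sperm, heat shock and eggshell lists lie farthest to the right, and 11 lists have no member.

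Of the 188 genes and unmatched transcripts, 35 (18.6%) were on 1 or more of the 7 lists for eggshell, oocyte, maternal, P granule, meiotic, small RNA and sperm genes, against 3.07% of the 8182 that could be chosen. The lists were chosen with earlier results of these data known, so this contrast is a description. Sperm genes made up 12 of the 35, with the near-identical MSP genes counted separately. No member came from the lists for mitosis (0 of 71), DNA replication and repair (0 of 72), chromatin (0 of 70), ribosomal proteins (0 of 58) or oxidative stress (0 of 25), where the share of 2.21% over all named genes would also give few or none. Their median gaps were 0.002, 0.04, -0.03, -0.17 and -0.05 log2. Muscle and epidermis genes were mostly highest on replicate 1, and the other tissue lists less uniformly. In muscle, 26 of all 27 measured muscle genes were highest on replicate 1, against 28.1% of all named genes. The summed signal of the muscle list was 214590 on replicate 1 and 138073 to 153566 on replicates 2 to 4, and unc-54 and myo-3 were highest on replicate 1 at 12.98 and 12.08 log2. For the 39 epidermis and cuticle genes the sum was 357839 on replicate 1 and 238494 to 257964 on the others, with 32 highest on replicate 1. For the 25 neuron genes it was 58914.5 and 48509 to 50422, with 16 highest and 4 lowest on replicate 1. For the 37 yolk and intestine genes it was 67156 and 55980.4 to 57158, with 19 highest and 8 lowest there, and the yolk protein gene vit-2 at a mean of 7.99 log2. Somatic gonad genes summed to 51932 on replicate 1 and 44720 to 48089 on the others. The part of these tissues in the low signal of the members on replicate 1 was not tested, and fewer cells of a type and less RNA per cell cannot be told apart in bulk RNA.

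The middle of the arrays was closely matched, with median signals of 576 to 591 over all transcripts. Their number limits the precision. Over the 10212 transcripts the median log2 signal was 12.74 to 12.75 on every replicate. The chemoreceptor genes were less alike at their upper end. Their 95th percentile, taken as a background level, was 8.09 log2 on replicate 1. It was 8.45, 8.26 and 8.48 on replicates 2 to 4. Their median differed less, at 7.21, 7.25, 7.20 and 7.29 log2 on replicates 1 to 4. The 95th percentile was lowest on replicate 1, as the members were by the rule, and its part in their gaps was not tested. Members were dimmer than most of the 10212 transcripts, but these are the brighter part of the 23181 measured. The mean log2 signal of every member was 10 or more, above these levels. With each array set against its chemoreceptor 95th percentile the smallest gap among the 200 then chosen was 0.24 log2, against 0.59 log2 here.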

How the data were processed

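Total RNA of 4 samples in 1 group was measured in 1 colour (Cy3), per the labels. The deposited files hold linear intensity values that the authors quantile normalized and then averaged for each transcript, per the file headers and the files' naming. Background correction, genome build and probe numbers: not given in the sources used here. The series-wide table was identical (largest difference 0). Values were floored at 1, which changed none, and taken as log2. Names, chromosomes and gene order came from RefSeq's WBcel235 gene table. Of the transcripts, 17151 matched as written, 5352 without their isoform letter and 678 did not. No p-value was computed, because the members were chosen on all 4 arrays. The rule was tested on simulated data. The members, the 21 gene lists and the 21 symbol families were chosen with earlier results of these data known, and the role groups after the members' values were seen. Named genes are the 30 with the widest gap, up to 8 members of each list, those next to the limit, and others picked afterwards for a known role or a shared pattern. No protein or promoter sequence was used here. Python 3.11.15, numpy 2.4.6, pandas 2.3.3 and matplotlib 3.10.9 were used. Quantile normalization hides any shift shared by most transcripts. Alternatives changed the signal minimum, the gap measure, the scaling, the number kept, the transcripts per gene and the replicates used.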

Additional observations from a re-analysis of the deposited data

Results flagged for a closer look

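Whole gene lists, members and other genes together, and 2 measures of array level were searched for a replicate far from the other 3, by the gap to the nearest value as a share of the range. Of 23 sets of 4 values, 5 stood out. The limit used would flag about 1 in 20 independent sets of random values. That rate does not apply here, since all sets share the same 4 arrays. The eggshell list also holds members chosen for a low replicate 1. The count is therefore a description and not a test. The median log2 signal of the eggshell list was 13.14 on replicate 1 and 13.55, 13.59 and 13.57 on replicates 2 to 4. That of the epidermis and cuticle list was highest on replicate 1, at 12.76, with 11.34 to 11.49 on the others. Ribosomal proteins were also highest on replicate 1, at 13.94, with 13.75 to 13.76 on the others. The mitosis list was highest on replicate 2, at 13.86, with 13.81 on the other 3. The median over the 10212 brighter transcripts was lowest on replicate 1, at 12.74, a difference in the second decimal.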

How the results depend on the processing

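The 200 members depended on the signal minimum and the gap measure. With a minimum mean log2 of 9 or 11, 128 or 102 of them were chosen again, and 116 were when the mean difference was divided by the SD of replicates 2 to 4 plus 0.1, which favours flat transcripts (median range over replicates 2 to 4 of 0.0891 instead of 0.21 log2). With 100 kept, 100 were chosen and 15 of the 35 genes on the 7 germline lists remained, by construction. The other settings chose 169 to 200 again: 169 with means in place of minima, and 179 with each array set against its chemoreceptor genes, where the smallest gap among those chosen was 0.24 log2 instead of 0.59. Leaving out replicate 2, 3 or 4 chose 169 to 172 again, with 30 to 39 germline list genes and median ranges of 0.12 to 0.14 log2. Replicate 1 cannot be left out, since the rule needs it, so its low signals rest on 1 array. No paired analysis was possible because there is 1 group. Signals under 10 log2 on replicate 1 are nearer to background, and near copies share signal.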
